A study of Mus musculus with 16 samples.

Results

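A single RNA library of muscle cells derived from high-passage myoblasts was set against 3 libraries of the same sorted population derived from low-passage myoblasts. The rule for the comparison took the 1 high-passage-derived library and GFP+ MPC replicates 1, 2 and 3, which are 4 of the 16 libraries of the series. Estimated counts were summed per gene, and of 33715 autosomal genes the 11891 with a mean of at least 1 count per M (CPM; M, mega) over the 4 libraries were described. A gene was above the range when its level in the high-passage-derived library exceeded the highest of the 3 replicates, and below it when the level was under the lowest.

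The study asked whether small molecules turn committed mouse myoblasts into cells resembling muscle stem cells. All cells were from skeletal muscle of Pax7-nGFP mice, in which a nuclear green fluorescent protein reports Pax7, and GFP+ cells were those kept in the sort for that reporter. What MPC stands for is not given in the labels. The 3 GFP+ MPC replicates came from 16-week-old males. Their cells had spent 2 to 3 passages in myoblast medium and 5 to 6 passages in MPC medium. That medium, with serum and basic FGF, held forskolin at 5 µM to activate adenylyl cyclase, RepSox at 5 µM to block the kinase of TGF-beta receptors, and CHIR9901, as the labels spell it, at 3 µM. The high-passage-derived cells came from a single 39-week-old female. Before the same medium, which they received for 2 passages, they were cultured at passage 8 as myoblasts sorted for the absence of GFP. They were then sorted for GFP like the others. Myoblast passage, passages in MPC medium, the first sort, sex, age and animal all differ between the library and the 3 replicates, and their parts cannot be told apart. The other 12 libraries, all from 16-week-old males, are 4 groups of 3. GFP+ myoblasts were sorted at passage 5 to 6 from myoblast medium without the small molecules. Bulk MPC were cultured like GFP+ MPC, bulk myoblasts were harvested at passage 3, and differentiated myoblasts, of passage 4 to 5, spent 3 days in differentiation medium. These groups serve below to place levels and distances, and GFP+ myoblasts also to choose the genes that separate the 2 sorted groups.

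Muscle stem cells, also called satellite cells, lie beneath the basement membrane of the muscle fibre and express Pax7. In the resting animal they are quiescent, held there in part by Notch signalling. Once activated they express Myf5 and Myod1 and divide as myoblasts, and myogenin (Myog) then starts terminal differentiation. Cultured cells that divide for long meet a barrier set by the INK4 and ARF proteins, which are encoded side by side and restrain the retinoblastoma and p53 pathways.

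Total estimated counts were 21.4 M in the high-passage-derived library and 19.6 to 22.6 M in the 3 GFP+ MPC replicates. The labelled sex was met by the sex-linked genes. Xist, expressed from the inactive X chromosome, was at 2879 CPM in the high-passage-derived library and under 1 CPM in each replicate, while Ddx3y and Uty of the Y chromosome had 0 counts in it. GFP+ MPC replicate 2 stood apart on chromosome 6. Its median log2 level there was 0.38 above the mean of the other 2 replicates, against -0.08 to 0.00 on the other autosomes. Relative to the 3 replicates, the high-passage-derived library had a median difference of -0.20 on chromosome 6, and of -0.08 relative to replicates 1 and 3. On the other autosomes its median differences were -0.03 to 0.09. With 1 library on one side there is no test and no p-value below. An exact permutation over 4 libraries could not go under 0.25. In a bulk library, fewer cells expressing a gene and less RNA of it in each cell cannot be told apart.

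At most genes the high-passage-derived library was inside the range of the GFP+ MPC replicates or less than 2-fold outside it. Of the 11891 genes, 3342 (28.1%) were above the range at any distance, 3002 (25.2%) were below it and 5547 (46.6%) lay inside. If the 4 libraries were alike, each would on average be the highest at 1 in 4 genes and the lowest at 1 in 4. With library totals alone in place of the trimmed-mean (TMM) scaling used here, 2767 were above and 3728 below, so the balance between higher and lower genes turned with the scaling. The median difference over all described genes was 0.01 with TMM and -0.04 with library totals. Outside it by at least 2-fold were 225 genes above (1.89%) and 301 below (2.53%), of which 22 and 21 were outside it by 8-fold or more. List counts at any distance are to be read against the shares at any distance, and list counts at 2-fold against those at 2-fold. Leaving out GFP+ MPC replicate 2 raised the counts at 2-fold to 443 and 507, whereas leaving out either of the other replicates gave at most 285 above and 377 below. For many genes replicate 2 was thus the library that set the limit of the range. Leaving out a replicate also changes which genes are described, since the minimum is taken over the libraries that remain. It can only narrow the range, so more genes fall outside. At any distance, 3952, 4371 and 4587 genes were above without replicates 1, 2 and 3, and 3657, 4128 and 3831 were below. List counts without a replicate are to be read against these.

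**Figure D1:**
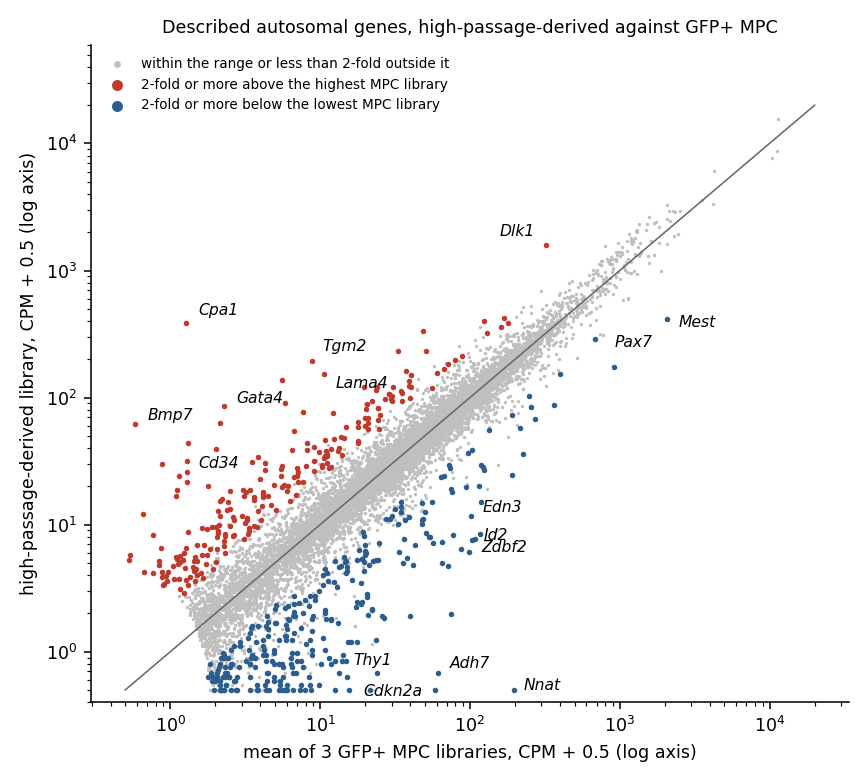
Each point is 1 of 11891 described autosomal genes, with the mean CPM + 0.5 of 3 GFP+ MPC libraries on the x axis and the CPM + 0.5 of the high-passage-derived library on the y axis, both logarithmic; the line marks equality. The 225 genes at least 2-fold above the highest replicate are red, the 301 at least 2-fold below the lowest are blue, and most genes lie along the line.

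The root mean square difference of log2(CPM + 0.5) from the GFP+ MPC mean was 0.69 for the high-passage-derived library. For replicates 1, 2 and 3 against the mean of their other 2 libraries it was 0.47, 0.57 and 0.46. The library was thus farther from the replicates than they were from each other. Between single libraries, its difference from replicate 2 was 0.68, whereas replicate 2 differed from replicates 1 and 3 by 0.62 and 0.61. Its difference from the GFP+ myoblast mean was 1.32, from the bulk myoblast mean 1.40, from bulk MPC 1.55 and from myoblasts after differentiation 1.81. Genes that separate the 2 sorted groups were then taken alone. Among 218 genes at which the nearest GFP+ MPC and GFP+ myoblast libraries differed at least 4-fold in favour of MPC, 194 (89.0%) were nearer to the MPC mean in the high-passage-derived library. Of 205 genes that were as far apart in favour of myoblasts, 194 (94.6%) were nearer to the MPC mean. On a scale from 0 at the myoblast mean to 1 at the MPC mean, the median position was 1.03 in each set.

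The exceptions, 24 and 11 genes, were nearer to the myoblast mean. Higher in GFP+ MPC were Thy1, Nnat, Adh7, Erbb3, Ctsc, Zdbf2, Grb10, Slc38a4 and Lgr5, among others. Higher in GFP+ myoblasts was the ephrin receptor gene Ephb2, at 89.8 CPM against a GFP+ MPC mean of 5.36 and a GFP+ myoblast mean of 56.1, and Hoxc13, at 17.8 CPM against 2.02 and 29.8. Other exceptions on that side were Mecom, Thbs2, Cadm1 and Fblim1. These names were chosen after their values were seen.

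Pax7, the defining factor of satellite cells and the gene behind the reporter used in the sort, was at 308 CPM in the high-passage-derived library and at 604, 870 and 851 CPM in GFP+ MPC replicates 1, 2 and 3. Its level was thus 1.96-fold under the lowest replicate, while its 95% exact Poisson interval, which covers counting error only, spanned 300.5 to 315 CPM. Myf5 was likewise under all 3 replicates, at 73.1 CPM against 151, 114 and 123 CPM. Myod1, at 157 CPM against 96.2, 207 and 290 CPM, lay inside the range. Myog was above it, at 181 CPM against 51.0, 119 and 147 CPM. Over the 12 myogenic regulatory factors and partners, 4 were above, 1 was below and none was 2-fold outside, with a median log2 difference of 0.21 (0.01 over all described genes). Mef2c, a partner of the myogenic factors in differentiation, was at 65.3 CPM against 20.3, 35.7 and 44.4 CPM. Differentiation genes did not follow Myog as a group: of 36 sarcomere genes, 2 were above and 6 below. That balance rested on replicate 2, without which 19 sarcomere genes were above and 6 below. Over all described genes, leaving it out raised the counts from 3342 to 4371 above and from 3002 to 4128 below. The embryonic myosin gene Myh3 was inside the range at 323 CPM, and creatine kinase (Ckm) at 7.32 CPM. Adult fast myosin Myh1 was at 24.0 CPM against 279, 179 and 117 CPM. Myosin genes are near-identical over long stretches, so the division of reads among them is uncertain.

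The 29 described muscle stem cell markers went both ways, with 14 above and 10 below, and 6 on each side by at least 2-fold. Over all described genes, 1.89% were above and 2.53% below by 2-fold. The median log2 difference of the markers was 0.04. Higher surface markers were Cd34, Vcam1 and Megf10. Cd34, a sialomucin used to sort satellite cells, was at 25.7 CPM against 0.688, 1.52 and 0.161 CPM, 16.8-fold above the highest replicate. Vcam1, an adhesion molecule used in the same sorts, was at 93.3 CPM against 25.9, 38.2 and 25.2 CPM. Megf10, a receptor of satellite cells, reached 362 CPM against 148, 159 and 177 CPM. Both Cd34 and Vcam1 were also present in GFP+ myoblasts, at means of 9.27 ± 3.51 and 143 ± 21.4 CPM (SD, n = 3). The bHLH repressor Msc (musculin) was at 231 CPM against 15.2, 112 and 23.2 CPM, and had 0 counts in all GFP+ myoblast libraries. The chromatin protein gene Hmga1 was at 166 CPM against 76.0, 70.0 and 54.7 CPM. Rgs16, a regulator of G protein signalling, was at 123 CPM against 19.7, 51.4 and 45.8 CPM.

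Lower markers included Edn3, Calcr and Gpx3. Edn3, the ligand endothelin 3, was at 11.3 CPM against 97.8, 96.3 and 109 CPM, 8.54-fold below the lowest replicate. Calcr, the calcitonin receptor of quiescent satellite cells, had 0 counts against 59, 20 and 78 counts. Set against a floor of 3 counts in the library, 0.131 CPM, Calcr was at least 17.1-fold lower than the mean of the replicates. In GFP+ myoblasts the mean was 0.0237 CPM for Edn3, and Calcr had 0 counts in all 3 libraries. The chemokine receptor gene Cxcr4 was at 18.6 CPM against 82.0, 40.6 and 100.3 CPM, and the adhesion molecule gene Ncam1 at 103 CPM against 273, 218 and 254 CPM. Caveolin gene Cav1 was at 72.0 CPM against 219, 168 and 184 CPM. Gpx3, a secreted glutathione peroxidase, had 4 counts against 217, 169 and 52 counts.

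The Notch list of 17 described genes had 6 above, 4 below and none 2-fold outside, with a median log2 difference of 0.03. Hey1 and Heyl encode effectors of the pathway. Hey1 was at 86.8 CPM against 143, 130 and 162 CPM, and Heyl at 444 CPM against 591, 548 and 653 CPM. Both were under all 3 replicates and far over the GFP+ myoblast means of 5.11 and 14.6 CPM. Cdkn1c, encoding the p57 inhibitor of cyclin-dependent kinases, was at 1933 CPM against 746, 1672 and 1015 CPM, with a GFP+ myoblast mean of 2.81 CPM.

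**Figure D2:**
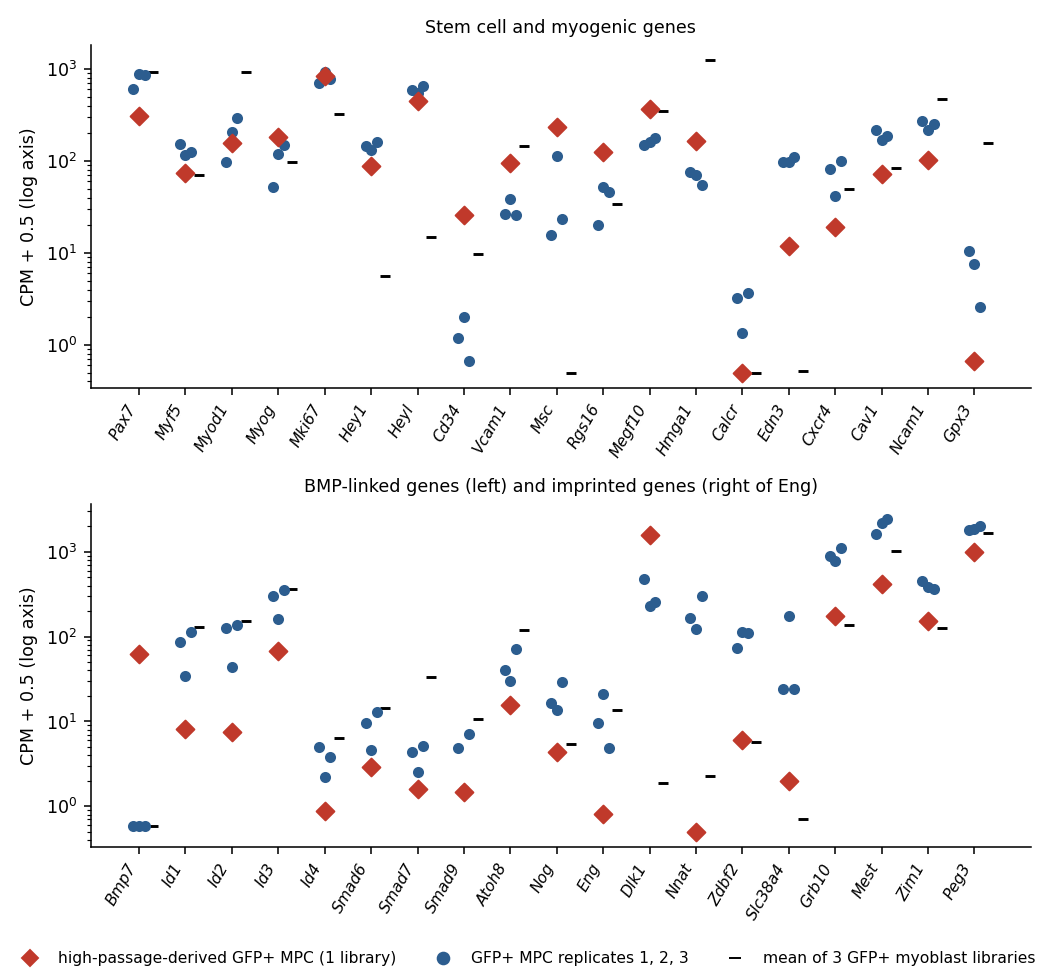
CPM + 0.5 on a logarithmic axis for 19 stem cell and myogenic genes (top) and 19 BMP-linked and imprinted genes (bottom). Red diamonds are the high-passage-derived library, blue points GFP+ MPC replicates 1, 2 and 3, and black dashes the mean of 3 GFP+ myoblast libraries; Cd34 and Bmp7 lie above all 3 replicates, and Edn3, the 4 Id genes and Nnat below them.

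No counts came from the INK4 and ARF locus in the high-passage-derived library. Cdkn2a, which encodes both the p16 INK4 inhibitor and the p53-stabilising ARF protein from separate starts, had 0 counts there and 1617, 1398 and 1040 counts in the replicates. On the CPM scale it was at 74.2, 59.1 and 41.8 CPM in the replicates, so that it was at least 447-fold lower than their mean of 58.4 ± 16.2 CPM (SD, n = 3) against the floor of 3 counts. GFP+ myoblasts held a mean of 50.9 CPM. Cdkn2b, the neighbouring gene for the p15 INK4 inhibitor, also had 0 counts, against 256, 81 and 178 counts, at least 57.0-fold lower. The other INK4 genes, which lie elsewhere in the genome, were expressed: Cdkn2c was at 64.1 CPM against 46.8, 56.2 and 61.6 CPM and Cdkn2d at 19.7 CPM against 27.2, 30.2 and 28.0 CPM.

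Both transcripts of Cdkn2a had 0 counts in the library. The one that starts at the upstream, ARF-type first exon was at 1295, 1196 and 952 estimated counts in the replicates. The one with the downstream, INK4-type first exon was at 322, 202 and 88.0. The 2 starts use different stretches of sequence, shown here because neither start gave a count. Each run is the 250 bases before the start in RefSeq, on the minus strand of build GRCm38.p6, with the letters GGGCGG, or CCGCCC for the other strand, in capitals. That motif is found in 32.7% of all 32851 RefSeq mouse promoter windows of this length.
Cdkn2a, upstream start, chr4:89294620-89294869: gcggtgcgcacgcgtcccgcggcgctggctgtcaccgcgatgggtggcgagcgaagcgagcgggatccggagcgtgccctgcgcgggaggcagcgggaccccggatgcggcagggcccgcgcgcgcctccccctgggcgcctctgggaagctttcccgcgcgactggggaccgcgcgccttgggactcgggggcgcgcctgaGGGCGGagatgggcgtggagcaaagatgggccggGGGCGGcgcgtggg
Cdkn2a, downstream start, chr4:89282193-89282442: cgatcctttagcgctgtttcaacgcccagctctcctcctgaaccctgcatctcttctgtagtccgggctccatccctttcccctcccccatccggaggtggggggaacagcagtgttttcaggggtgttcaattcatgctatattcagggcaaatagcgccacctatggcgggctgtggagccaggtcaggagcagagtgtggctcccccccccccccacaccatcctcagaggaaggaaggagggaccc
The upstream window holds the motif 2 times and the downstream window does not hold it.

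Flanking genes had counts in the high-passage-derived library. Of the 20 described neighbours, 10 on each side of the pair in gene order, 10 lay inside the range, 6 above and 4 below. None was outside by 2-fold, and the median log2 difference was 0.04. Over all described genes, 46.6% lay inside, and 1.89% were above and 2.53% below by 2-fold. The neighbours were thus near the shares of all genes. Mtap, the adjacent gene for a methylthioadenosine phosphorylase, was at 132 CPM against 103, 110 and 125 CPM. Beyond Cdkn2b, Caap1 was at 8.14 CPM against 7.98, 8.59 and 8.56 CPM and Plaa at 99.8 CPM against 78.9, 90.4 and 122 CPM. The neighbours farthest outside the range were Slc24a2, 1.97-fold below the lowest replicate, and the non-coding AL805899.1, 1.89-fold above the highest. The pair at 0 is thus bounded on both sides by genes that had counts. These were not 2-fold outside the range, which they shared with most described genes.

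**Figure D3:**
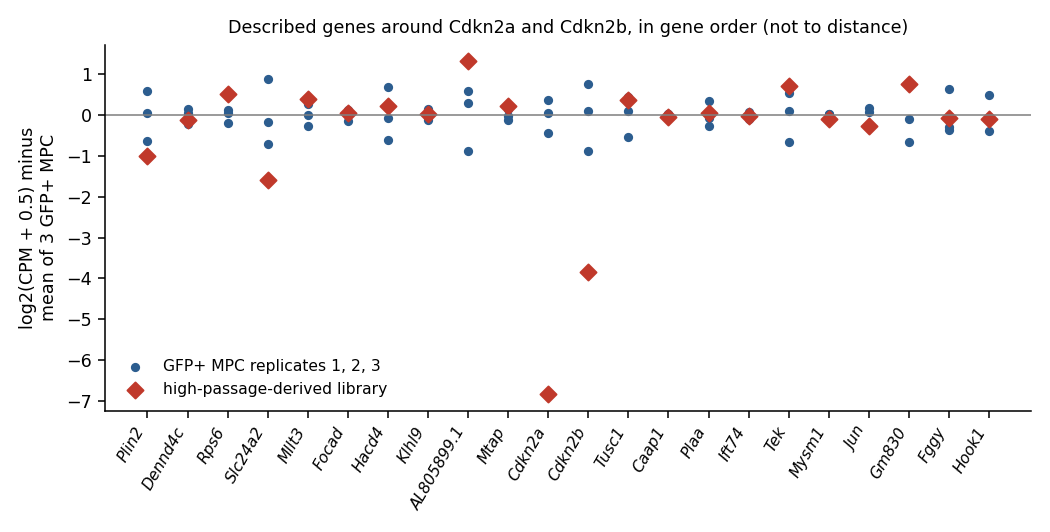
Log2(CPM + 0.5) minus the mean of the 3 GFP+ MPC libraries for Cdkn2a, Cdkn2b and the 20 described genes around them, in gene order and not to distance. The high-passage-derived library (red diamonds) is at 0 counts for the pair, at -6.84 and -3.84 on this scale, and near the 3 replicates (blue points) at most flanking genes.

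Among all autosomal genes, 12 had 0 counts in the high-passage-derived library and at least 50 counts in each replicate. None had at least 50 counts in that library and 0 counts in all 3 replicates. The conditions are not alike, since the second asks for 0 counts in 3 libraries and the first in a single library. Bmp7, described below, had stray counts in the replicates and so did not meet the second. Besides Cdkn2a, Cdkn2b and Nnat, the 12 genes were Thbs4, Kcnab2, Wasf3, Gstk1, Pcdh17, Sdk1, Ano3, BC005561 and Gm45184. All 12 are named because there are few, and they were found after the values were seen.

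In the senescence and p53 list, which also holds Cdkn2a and Cdkn2b, 6 of 22 described genes were above and 11 below, with a median log2 difference of -0.44. Their summed level, 1392 CPM, lay inside the 2150, 1363 and 1746 CPM of the replicates. Cdkn1a, the p53-induced p21 inhibitor, was at 156 CPM against 337, 168 and 236 CPM. Other p53 targets under all 3 replicates were Ccng1, at 93.0 CPM against 308, 108 and 207 CPM, and Bax, which promotes cell death, at 55.5 CPM against 149, 58.2 and 101 CPM. In both cases replicate 2 was the nearest. Igfbp7, a secreted IGF-binding protein of the same list, went the other way, at 88.6 CPM against 19.9, 13.6 and 26.9 CPM.

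Of 30 cell cycle genes, 16 were below the range and 3 above, with a median log2 difference of -0.24. Among the lower genes, Ccnb1 (cyclin B1) was at 165 CPM against 300.1, 301 and 276 CPM, Cdc20 at 101 CPM against 207, 160 and 170 CPM, and the mitotic kinase gene Plk1 at 83.1 CPM against 154, 143 and 154 CPM. E2f1 and Mcm6, of DNA replication, were above, E2f1 at 105 CPM against 54.3, 82.1 and 71.6 CPM. Without GFP+ MPC replicate 3, 10 genes were above and 16 below. Over all described genes, leaving it out raised the counts from 3342 to 4587 above and from 3002 to 3831 below. Mki67, a marker of cycling cells, was inside the range at 834 CPM against 708, 927 and 780 CPM. Only Ccnd2 (cyclin D2) was outside by 2-fold, at 7.49 CPM against 54.7, 33.4 and 72.9 CPM. It lies on chromosome 6, and its level was lower than that of replicates 1 and 3 as well.

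Id proteins bind the partners of myogenic bHLH factors and so hold back differentiation, and their genes are direct targets of bone morphogenetic protein (BMP) signalling. All 4 Id genes were lower in the high-passage-derived library. Id1 was at 7.75 CPM against 85.3, 33.9 and 112 CPM, and Id2 at 7.06 CPM against 127, 43.7 and 135 CPM. Id3 was at 67.6 CPM against 304, 159 and 349 CPM, and Id4, at 0.392 CPM against 4.45, 1.73 and 3.34 CPM, was the least expressed. Each was at least 2.35-fold below the lowest replicate, which was replicate 2 for all 4.

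Genes linked to BMP signalling were set out in a list drawn up after the Id values were seen. Since those values prompted the list, its counts are a description only. Of its 21 described members, 13 were below the range and 4 above, with a median log2 difference of -0.66. Among the induced feedback genes, Smad6 was at 2.40 CPM against 8.99, 4.06 and 12.3 CPM, and Atoh8 at 15.2 CPM against 40.1, 29.6 and 70.7 CPM. The co-receptor gene Eng was at 0.305 CPM against 8.99, 20.7 and 4.38 CPM, and the BMP antagonist gene Nog (noggin) at 3.83 CPM against 15.9, 13.2 and 28.7 CPM. The ligand gene Bmp7 was higher instead: it had 1416 counts, 61.7 CPM, against 2 counts in each replicate. Bmp7 was among the genes farthest above the range, as was Gata4, a transcription factor of heart and endoderm, at 84.6 CPM against 0.459, 3.09 and 1.85 CPM.

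Twist1, another bHLH repressor, was at 8.32 CPM against 0.367, 0.127 and 1.97 CPM. Of the 11 described Id, E protein and repressor genes, 3 were above and 6 below in all, with a median log2 difference of -0.38.

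Imprinted genes are expressed from 1 parental copy, and several control fetal growth. Many of them were among the largest differences, and the list of 49 imprinted genes was drawn up after this was seen. Of 42 described, 22 were below the range and 9 above, 10 and 1 of these by at least 2-fold, with a median log2 difference of -0.23. The 2-fold shares over all described genes were 2.53% below and 1.89% above. Nnat (neuronatin) had 0 counts against 3615, 2927 and 7511 counts, which puts it at least 1509-fold lower than the mean of the replicates. Zdbf2, which encodes a zinc finger protein, was at 5.62 CPM against 72.4, 112 and 111 CPM. The amino acid transporter gene Slc38a4 was at 1.48 CPM against 24.0, 176 and 23.3 CPM. For Nnat, Zdbf2 and Slc38a4 the lowest replicate was at least 12.9-fold higher.

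Several abundant imprinted genes were lower, whereas Dlk1 and Cdkn1c were above the range. Mest, encoding a hydrolase of fetal mesoderm, was at 415 CPM against 1611, 2209 and 2399 CPM, and Grb10, an adaptor that inhibits insulin and IGF receptors, at 174 CPM against 902, 769 and 1093 CPM. Zim1 was at 154 CPM against 451, 387 and 360 CPM, and its neighbour Peg3, a zinc finger factor, at 992 CPM against 1817, 1855 and 2004 CPM. The growth factor gene Igf2 was at 7742 CPM against 10148, 9660 and 11396 CPM, while the linked non-coding RNA H19 was inside the range at 8779 CPM. Dlk1, a membrane protein of fetal muscle, was the reverse of these, at 1575 CPM against 481, 231 and 255 CPM. From the same imprinted domain, the non-coding RNA Meg3 was at 35.7 CPM against 77.5, 388 and 207 CPM. Dlk1, expressed from the paternal copy, and Meg3, from the maternal copy, thus lay on opposite sides of the range. Zdbf2 and Grb10 were near the GFP+ myoblast means of 5.30 and 135 CPM, whereas Dlk1, at a GFP+ myoblast mean of 1.37 CPM, was not.

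Sterol synthesis genes formed the list with the most uniform direction. Of 18 described members, 16 were above the range, none was below and none was outside by 2-fold, and the median log2 difference was 0.90. Their summed level was 1643 CPM in the high-passage-derived library and 928, 1243 and 910 CPM in the replicates. Leaving out any 1 replicate gave 16 to 18 above and 0 below. Hmgcs1, of an early step of the pathway, was at 124 CPM against 68.4, 107 and 81.6 CPM. Fdps and Fdft1, of later steps, had log2 differences of 1.27 and 1.18. Fdps was at 119 CPM against 42.4, 74.3 and 37.3 CPM, and Fdft1 at 90.6 CPM against 35.3, 57.5 and 31.0 CPM. The sterol sensor Insig1 was at 107 CPM against 52.9, 53.9 and 37.2 CPM. Srebf2, whose product activates genes of this pathway when sterols are low, was at 413 CPM against 293, 359 and 306 CPM. Mvk and Acat2 were inside the range. Replicate 2 was the highest of the 3 replicates at all 18.

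**Figure D4:**
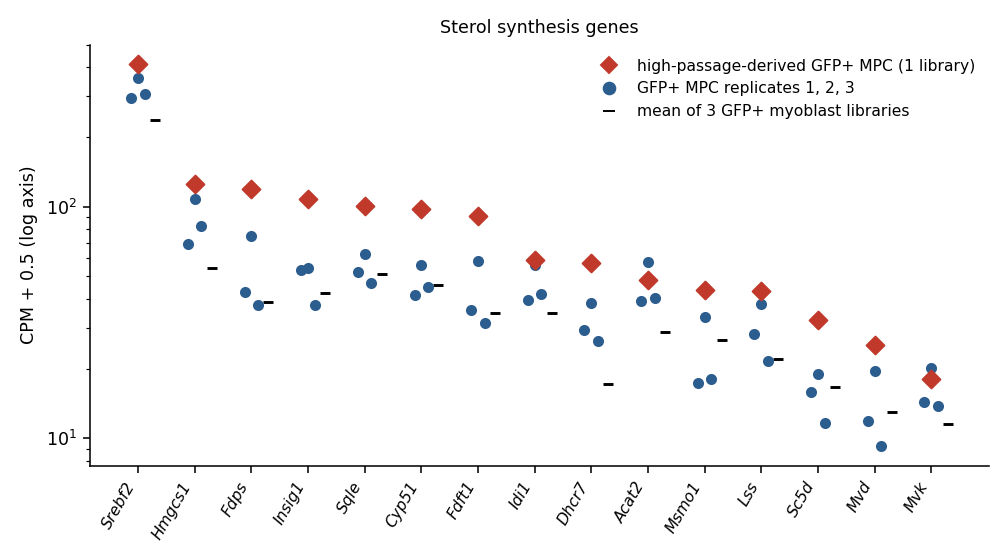
CPM + 0.5 on a logarithmic axis for 15 of the 18 described sterol synthesis genes, ordered by their level in the high-passage-derived library (red diamonds). The 3 GFP+ MPC replicates are blue points and the mean of 3 GFP+ myoblast libraries a black dash; 13 of these 15 diamonds lie above all 3 blue points.

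Sterol-responsive factors bind promoters beside a partner that recognises the CCAAT box. CCAAT or its complement ATTGG occurred in 11 of 14 RefSeq windows of 250 bases, from 12 of the 18 genes with an entry, against 33.8% of all 32851 windows. GGGCGG, a motif of many promoters, was likewise more frequent, in 13 of the 14 windows against 32.7% of all. A known form of the sterol regulatory element, TCACNCCAC on either strand, occurred in 1 of the 14 and in 1.05% of all. The windows of 3 members are shown because these genes were higher together, with CCAAT or TCACNCCAC on either strand in capitals, in build GRCm38.p6. Hmgcs1 and Insig1 are on the plus strand and Cyp51 on the minus strand.
Hmgcs1, chr13:119690101-119690350: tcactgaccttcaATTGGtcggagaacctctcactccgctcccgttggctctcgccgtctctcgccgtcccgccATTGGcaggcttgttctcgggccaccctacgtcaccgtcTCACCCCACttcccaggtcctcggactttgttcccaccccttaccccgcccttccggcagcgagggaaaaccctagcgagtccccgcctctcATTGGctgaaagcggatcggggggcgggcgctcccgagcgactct
Insig1, chr5:28071162-28071411: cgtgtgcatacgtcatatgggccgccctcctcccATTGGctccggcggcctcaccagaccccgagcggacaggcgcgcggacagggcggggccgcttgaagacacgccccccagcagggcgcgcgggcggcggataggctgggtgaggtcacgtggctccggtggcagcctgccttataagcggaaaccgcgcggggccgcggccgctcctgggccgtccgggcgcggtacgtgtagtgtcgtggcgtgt
Cyp51, chr5:4104698-4104947: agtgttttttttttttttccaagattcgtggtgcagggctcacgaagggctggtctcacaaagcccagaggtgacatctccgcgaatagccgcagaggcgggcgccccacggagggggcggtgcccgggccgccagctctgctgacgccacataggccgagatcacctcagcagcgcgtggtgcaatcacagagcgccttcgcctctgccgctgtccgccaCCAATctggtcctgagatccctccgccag
Hmgcs1 holds 3 CCAAT boxes and the 1 sterol element, and Insig1 and Cyp51 hold 1 CCAAT box each. These matches describe letters and not bound sites. The comparison is with all windows, whether or not their genes were described here. The part of these motifs in the higher levels was not tested.

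Targets of cAMP and CREB leaned the other way. The MPC medium holds forskolin, which raises cAMP, and both kinds of culture received it. Of 19 described genes in this list, 12 were below and 1 was above, with a median log2 difference of -0.94. The phosphodiesterase genes Pde3a and Pde10a, whose products break down cyclic nucleotides, were at 4.75 CPM against 16.7, 36.5 and 18.1 CPM and at 10.5 CPM against 27.3, 30.4 and 23.7 CPM. Sik1, a kinase induced by cAMP, was at 38.2 CPM against 103, 85.6 and 120.3 CPM, and the phosphatase gene Dusp1 at 2.74 CPM against 12.3, 10.4 and 15 CPM. The nuclear receptor gene Nr4a2 was above, at 5.92 CPM against 1.51, 2.16 and 1.01 CPM. Immediate early genes are also induced by cell dissociation and sorting, and their list had 1 of 16 above and 7 below. Fos was at 4.97 CPM against 65.6, 27.7 and 18.9 CPM and Egr1 at 60.5 CPM against 309, 195 and 115 CPM. The part of dissociation or sorting in the lower cAMP list was not tested.

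Of the 15 described glutathione and xenobiotic genes, 9 were below and 2 above, with a median log2 difference of -0.69. Nqo1, a quinone reductase, was at 1.66 CPM against 32.8, 5.03 and 27.4 CPM, and Aldh3a1, an aldehyde dehydrogenase, at 2.18 CPM against 35.6, 5.33 and 19 CPM. For both genes replicate 2 lay between the high-passage-derived library and the other replicates.

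Wnt feedback gene Axin2, induced by beta-catenin and so by inhibitors of GSK3, was at 17.4 CPM against 8.86, 5.75 and 7.0 CPM. Another beta-catenin target, the R-spondin receptor gene Lgr5, was lower, at 8.06 CPM against 66.1, 32.4 and 53.7 CPM. The list of 12 described Wnt genes had 4 above and 3 below. Of 19 described TGF-beta targets, 4 were above and 8 below, with a median log2 difference of -0.22. Ccn2, a sensitive target of TGF-beta and YAP, had 3 counts in the high-passage-derived library and 2 to 3 counts in each replicate, so that no difference was detectable at this depth.

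Of 30 described matrix genes, 9 (30%) were above and 10 (33.3%) below, against 28.1% and 25.2% over all described genes. Lama4, the alpha chain of endothelial and nerve laminins, was at 152 CPM against 7.30, 19.2 and 3.86 CPM, and its partner chains Lamb1 and Lamc1 at 686 CPM against 270.2, 378 and 245 CPM and at 524 CPM against 244, 298 and 228 CPM. The basement membrane collagen gene Col4a1 was at 2428 CPM against 1569, 1760 and 1919 CPM. Lower ones were Col5a3, at 7.27 CPM against 180.3, 29.4 and 112 CPM, and Col19a1, at 0.348 CPM against 10.2, 15 and 11.1 CPM. The 2 chains of collagen I were on opposite sides: Col1a1 was at 19.6 CPM against 0.642, 2.41 and 0.764 CPM, and Col1a2 at 0.348 CPM against 6.52, 1.40 and 11.7 CPM.

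Hox genes record position along the body and limb. Of 21 described, 3 were above, 9 below and 9 (42.9%) inside the range, against 46.6% inside over all described genes. The 3 were all 2-fold above. Hoxa11, of the forearm and shank segment, was at 23.5 CPM against 1.01, 0.169 and 0.764 CPM, Hoxa13 at 3.35 CPM against 0.642, 0.338 and 0.161 CPM, and Hoxc13 at 17.8 CPM against 4.22, 0.465 and 1.37 CPM. Without GFP+ MPC replicate 2, 8 of 18 described Hox genes were above and 6 below, while over all described genes 4371 were above and 4128 below. In the list of other limb and body position factors, 4 of 12 described were above and 3 below, with a median log2 difference of 0.06. Its only 2-fold difference was Tbx4, of the hind limb programme, at 1.61 CPM against 13.5, 35.4 and 16.6 CPM. The muscle of origin is not given in the labels, and its part in these values was not tested.

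In the antigen presentation list, 5 of 9 described genes were above and 1 was below, with a median log2 difference of 0.85. The class I heavy chain gene H2-K1 was at 10.9 CPM against 2.94, 1.95 and 1.49 CPM, and the light chain gene B2m at 54.9 CPM against 36.9, 41.2 and 32.9 CPM. Class I genes are close copies, so the division of reads among them is uncertain. Of 20 described glycolysis genes, 8 were below and none above, and of 25 respiratory chain genes, 7 were below and 1 was above. Leaving out replicate 2 raised the counts over all described genes from 3342 to 4371 above and from 3002 to 4128 below. Without it, 4 glycolysis genes were above and 10 below, and 17 respiratory genes were below. Ldhb, a lactate dehydrogenase chain, was the only 2-fold difference among them, at 0.697 CPM against 22.8, 16.2 and 7.84 CPM.

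**Figure D5:**
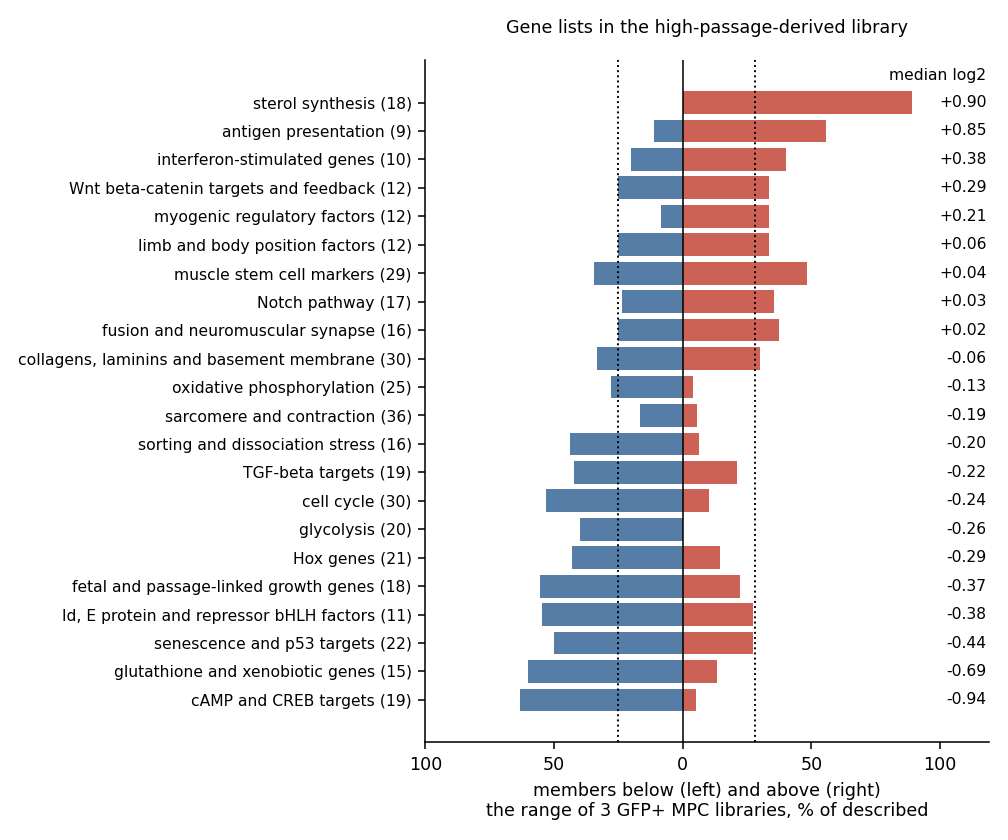
Share of the described members of 22 gene lists below (blue, left) and above (red, right) the range of the 3 GFP+ MPC libraries, in percent, with the number described in brackets and the median log2 difference at the right. Dotted lines mark the shares over all 11891 described genes, 28.1% above and 25.2% below; sterol synthesis lies farthest above and the cAMP list has the lowest median.

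The libraries were also checked for markers of other cell types. Cdh5 of endothelium, Adgre1 of macrophages, Sox10 of Schwann cells and Adipoq of fat cells had 0 counts in the high-passage-derived library. Each had at most 3 counts in each replicate. Most other members of these 4 lists did have counts in the high-passage-derived library. Of 3 described endothelial genes, 1 was above the range and 1 below. The higher one was Tek, at 2.83 CPM against 0.780, 2.45 and 1.69 CPM. Among autosomal members detected in the series, 3 of 11 endothelial, 3 of 10 macrophage, 2 of 10 glial and 4 of 10 adipocyte genes had 0 counts. Summed over its list, the endothelial level was 10.8 CPM against 8.03 to 13.6 CPM in the replicates and the macrophage level 2.87 CPM against 3.81 to 5.78 CPM. The glial list summed to 195 CPM against 127 to 259 CPM. The adipocyte list was higher, at 705 CPM against 516 to 634 CPM, with 2 of 3 described members above the range. For fibroblast and fibro-adipogenic progenitor markers the sum was 281 CPM against 312 to 414 CPM, with Fbn1 at 227 CPM the most abundant. Pdgfra, which defines those progenitors, had 59 counts against 5 to 10, and Dcn was at 12.8 CPM against 0.826, 8.54 and 1.09 CPM. Thy1 of the same list was at 0.131 CPM against 17.7, 16.1 and 10.3 CPM. Tenocyte markers summed to 91.6 CPM against 274 to 451 CPM, mostly from tenascin C (Tnc), at 86.5 CPM against 435, 257 and 401 CPM. Pericyte and smooth muscle markers summed to 2051 CPM against 2243 to 2369 CPM. Within that list Pdgfrb was at 254 CPM against 84.3, 145 and 100.4 CPM, and Rgs5 at 0.348 CPM against 34, 4.19 and 2.61 CPM. Among glial markers the neurotrophin receptor gene Ngfr was at 187 CPM against 49.7, 57.5 and 97.9 CPM, and Erbb3, a neuregulin receptor, at 7.97 CPM against 76.6, 109 and 161 CPM.

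The genes farthest above the range were led by Cpa1, a pancreatic carboxypeptidase, with 8831 counts, 385 CPM, against 0.321, 1.61 and 0.402 CPM. After Bmp7 and Gata4, the list of 15 held the transglutaminase gene Tgm2, at 193 CPM against 12.2, 10.8 and 2.09 CPM, and Wscd1, at 136 CPM against 4.59, 8.97 and 1.61 CPM. It also held Dhrs3, a retinaldehyde reductase induced by retinoic acid, at 62.5 CPM against 4.13, 0.296 and 0.483 CPM, and Vipr1, a receptor for vasoactive intestinal peptide, at 38.9 CPM against 1.33, 2.41 and 0.844 CPM. Crispld2, Galnt18, Prph, Ppp1r16b, Ephb2, Hoxa11, Cd34 and Pcdhgb2 completed it. In GFP+ myoblasts Cpa1 had a mean of 0.0450 CPM and Wscd1 of 0.0130 CPM, while Ephb2 was at 56.1 CPM.

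Among the 15 genes farthest below, after Nnat and Cdkn2a, was Adh7, an alcohol dehydrogenase that acts on retinol, with 4 counts, 0.174 CPM, against 90.1, 27.2 and 66.1 CPM. Others were Erfe (erythroferrone), at 1.39 CPM against 22.6, 27.5 and 25.7 CPM, the protease gene Ctsc, at 0.523 CPM against 10.6, 9.47 and 11 CPM, and Reln (reelin), at 0.348 CPM against 28.0, 6.64 and 8.24 CPM. Ptprn was at 0.174 CPM against 44.1, 7.19 and 18.9 CPM, and the protocadherin gene Pcdh17 had 0 counts against 33.5, 3.47 and 26.3 CPM. Thy1, Col19a1, Slc38a4, Zdbf2, Erbb3, Edn3 and Pcdhga6 completed them. Members of the gamma protocadherin cluster, Pcdhgb2 above and Pcdhga6 below, share their last exons, so their counts are uncertain.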

How the data were processed

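The deposited files, 1 per library, hold per the file headers the authors' estimated counts, TPM and effective length (another unit, in bases) of each transcript. Per the submitters' processing notes the tools were fastp 0.20.0 and kallisto 0.46.1 and the build GRCm39. The strand setting of the counting is not given in the sources used here. They were added up over the transcripts of each gene, then rounded; 120739 of 121798 transcripts matched GENCODE M21, which is on GRCm38 and served for names, chromosomes and gene order only. Transcripts without a match held 0.478% to 1.05% of counts.

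CPM were scaled with TMM factors of edgeR 4.0.16 over 16 libraries. A difference is that of log2(CPM + 0.5), the high-passage-derived library minus the mean of 3 replicates, which understates low genes. Genes off the autosomes were left out because the sexes differ. No test was possible. The 4 libraries were checked for duplicates by chi-square per degree of freedom (46.3 to 114, none near 1), and the calling was tested on simulated data. Where the library had 0 counts, the bound uses 3 counts in that library.

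The members, the 22 pathway and 7 marker lists and the naming rule were chosen with earlier results of these data known. The rule named a fixed set (such as Pax7, Myod1 and Cdkn1a), up to 4 members per list and direction among those 2-fold outside, and the 15 protein-coding genes farthest outside in each direction at 10 CPM or more. Other genes named, and the imprinted and BMP lists, were chosen after their values were seen. Some members counted in the lists are not reported here by name.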

Additional observations from a re-analysis of the deposited data

How the results depend on the processing

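No paired analysis was possible because the comparison has no test and the high-passage-derived library comes from another animal than the replicates. Counts at 2-fold, 225 above and 301 below, became 138 and 169 at a minimum mean of 5 CPM, and 49 and 67 at a distance of 4-fold; with a prior of 2 CPM, 141 were below. Without any filter, 5870 genes were above the range and 4689 below at any distance. Leaving out each replicate gave 261 to 443 and 335 to 507 genes at 2-fold, and 3952 to 4587 above and 3657 to 4128 below at any distance. The distance to GFP+ MPC, 0.69, was 0.54 without a filter, 0.62 at 5 CPM, 0.54 and 0.82 with priors of 2 and 0.1 CPM, and 0.67 to 0.76 leaving out a replicate; that to GFP+ myoblasts, 1.32, was 1.07, 1.21, 1.09 and 1.5 and 1.30 to 1.32. Nearest to GFP+ MPC were 83.1% to 88.9% of MPC-high and 90.0% to 94.1% of myoblast-high genes leaving out a replicate. DESeq2 size factors, library totals and length-scaled counts moved no overall count by over 1.5 times and no distance by over 1 SD of the replicates. Leaving out chromosome 6 (added after seeing the data) moved none of the 4 counts of genes outside the range by over 1.5 times. The distances were not run without chromosome 6. No named gene reversed under any alternative run. By over 1 SD of the replicates, 37 and 23 of 92 moved with priors of 2 and 0.1 CPM. With DESeq2 size factors 1 moved, with library totals 1 and with length-scaled counts 6. Leaving out a replicate moved none, but this could not have come out otherwise. Dropping 1 of 3 values cannot shift their mean by 1 SD. Of 58 list counts, 9, 15 and 11 moved by over 1.5 times without replicates 1, 2 and 3, 14 without a filter, 10 at 5 CPM and 1 with length-scaled counts. The alternatives without a filter and at 5 CPM were not run for named genes. Depth limits genes near the floor of 3 counts, 0.131 CPM.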

Other observations

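A stretch of neighbouring genes on chromosome 11 that begins with Axin2 was mostly higher in the high-passage-derived library. It was picked after the values were seen, so its count is a description with no test. From Axin2 to Slc9a3r1 in gene order, 24 of 33 described genes were above the range of the 3 GFP+ MPC replicates and 2 were below, with a median log2 difference of 0.64. The 20 genes around the stretch, 10 on each side, had 4 above and 3 below and a median of 0.04. The ATP-binding cassette genes of this stretch were all above the range. Abca5 was at 78.2 CPM against 50.3, 56.5 and 46.1 CPM and Abca8b at 39.6 CPM against 20.5, 21.4 and 9.57 CPM in replicates 1, 2 and 3, less than 2-fold above the highest replicate. Abca6 was at 15.4 CPM against 1.70, 2.62 and 0.844 CPM, Abca9 at 16.3 CPM against 1.93, 2.41 and 3.46 CPM, and Abca8a at 15.1 CPM against 2.39, 3.59 and 3.46 CPM. The monocarboxylate transporter gene Slc16a6 was at 103 CPM against 26.4, 29.6 and 33.2 CPM. Prkar1a, the regulatory subunit that holds protein kinase A inactive until cAMP binds, was at 616 CPM against 466, 404 and 463 CPM. Not every gene of the stretch differed: Gna13 and Sox9 were inside the range, at 100.2 and 16.6 CPM. Axin2, the Wnt feedback gene of the report, lies within this stretch, and the part of its neighbourhood in its level was not tested.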
